A study of Rattus norvegicus with 4 samples.

Results

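Cholecystokinin, somatostatin, neuropeptide Y, vasoactive intestinal peptide, cortistatin and corticotropin-releasing hormone are neuropeptides of the cerebral cortex, encoded by Cck, Sst, Npy, Vip, Cort and Crh. They were followed in stroke-side cortex of ovariectomised female rats that received 17beta-estradiol or placebo. Members were the probe sets, other than array controls, whose only gene symbol in the platform annotation is 1 of these 6 genes. This gave 6 probe sets of 5 genes, out of 7006 probe sets of 4736 genes with a single symbol. Cort had no probe set of its own, since the 2 probe sets that carry its symbol also carry Cenps, Pgd and Kif1b.

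Affymetrix arrays (array A of the rat U34 set) were used, which measure each transcript with a set of short oligonucleotides. All rats had been ovariectomised and had the middle cerebral artery closed for 2 h from inside the vessel, per the series design text, so both groups share these procedures and differ in the estradiol replacement. There were 2 arrays per group, and RNA of 3 animals was pooled on each. These independent pools are called estradiol 1, estradiol 2, placebo 1 and placebo 2. The design text names tissue at 6 and 24 h, but no label states the time of these arrays in words, and strain, age and hormone dose are not given in the sources used here. Uninjured and contralateral cortex were not analysed here, so no value below says what the stroke itself did.

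Neuropeptides are made as larger precursors, cut by convertase enzymes, stored in dense-core vesicles and released on strong firing to act on G protein-coupled receptors. In the cortex Sst and Vip mark largely separate classes of GABA-releasing interneurons. Npy overlaps in part with the Sst class, Cort is a close relative of Sst in peptide sequence and receptors, and Crh is made by a subset of interneurons. Cck differs from these in that both a class of interneurons and many excitatory pyramidal neurons make it. Sst and Vip are textbook targets of the cAMP-responsive factor CREB, which binds the cAMP response element.

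RefSeq promoter windows, from 250 bases before to 50 bases after the annotated gene start in build GRCr8, matched 3 of the 5 measured genes, Sst, Npy and Vip. The cAMP response element stretches of Sst and Vip are shown first because they carry the motif these genes are known for. Capitals mark TGACGTCA, the palindromic element, or its core TGACG. The Sst stretch is at chr11:90461537-90461566 and the Vip stretch at chr1:44470372-44470401, both on the plus strand.
Sst: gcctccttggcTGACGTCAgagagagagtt
Vip: gatcaccactgTGACGtctttcgaggagcc
Sst held the whole element, whose first base is base 3 counted from the annotated start as base 1. The element is thus outside the 250 bases before that start, and no other start of the gene was examined. Vip held TGACG with its first base 97 bases before the start, and no whole element. Npy held neither. Of 33469 rat promoter windows of the same length, 1.83% held TGACGTCA and 21.2% held TGACG on either strand, a count that includes those inside the whole element.

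The sequence before the start is shown for all 3 genes, since it is the nearest upstream sequence of the members and lets the absence of a full estrogen response element be read. Capitals mark TGACG, or GGTCA, the arm of the estrogen response element, on either strand. The printed stretches are chr11:90461296-90461545 for Sst, chr4:80211861-80212110 for Npy and chr1:44470230-44470479 for Vip, all on the plus strand.
Sst: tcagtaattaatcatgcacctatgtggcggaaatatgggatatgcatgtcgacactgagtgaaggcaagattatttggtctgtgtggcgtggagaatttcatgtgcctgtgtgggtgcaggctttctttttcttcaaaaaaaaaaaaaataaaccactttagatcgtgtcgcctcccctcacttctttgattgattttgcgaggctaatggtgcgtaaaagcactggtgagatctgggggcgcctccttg
Npy: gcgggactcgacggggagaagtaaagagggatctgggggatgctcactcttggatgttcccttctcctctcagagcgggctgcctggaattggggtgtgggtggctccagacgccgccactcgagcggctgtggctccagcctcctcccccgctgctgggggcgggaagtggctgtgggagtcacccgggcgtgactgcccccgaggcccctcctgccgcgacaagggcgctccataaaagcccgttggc
Vip: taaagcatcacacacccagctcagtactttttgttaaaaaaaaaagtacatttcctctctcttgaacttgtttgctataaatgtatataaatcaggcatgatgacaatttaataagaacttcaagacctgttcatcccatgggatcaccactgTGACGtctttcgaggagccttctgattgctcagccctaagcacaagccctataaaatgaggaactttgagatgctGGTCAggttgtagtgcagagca
The full estrogen response element, GGTCA followed after any 3 bases by TGACC, was in 0 of the 3 windows and in 0.0269% of all windows. Its arm GGTCA, found in 40.5% of all windows, occurred in Vip alone of the 3, with the first base 22 bases before the start. Base composition differed, with 67.6% G and C in the Npy stretch, 44.4% in Sst and fewer in Vip. These matches describe letters in a window and were not tied to any change below.

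Scaled intensities and RNA quality ratios were similar on the 4 arrays. The deposited values were already scaled, so near-equal medians do not show equal raw signal. Median intensities lay between 55.0 and 57.8, and the 3' to 5' signal ratio of GAPDH, which reflects RNA integrity, between 1.30 and 1.45, with 1.28 to 1.58 for actin. The background came from 23 controls for transcripts of bacteria, yeast and mouse, whose brightest value per array lay between 30.1 and 37.8. Pools of 1 group differed from each other as much as pools of different groups did. Over probe sets, log2 differences had an SD of 0.489 within the estradiol group, 0.523 within the placebo group and 0.461 to 0.505 across groups. The small number of arrays limits the precision of every value. In pooled tissue RNA, fewer cells of a type and less RNA per cell cannot be told apart.

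Cck had the lowest estradiol-minus-placebo value of the 4 peptide genes that could be tested. Cck, read by probe set X01032_at, stood at 1278.9 and 1339.6 under estradiol (pools 1 and 2, the order used throughout) against 1854.7 and 2006.7 under placebo. Both estradiol pools lay below both placebo pools, and all values were far above background. The mean intensity was 1309 ± 42.9 (SD, n = 2) under estradiol against 1931 ± 107 (SD, n = 2) under placebo. The log2 fold change, on the log2(intensity + 16) scale used throughout, was -0.55 ± 0.18 (SE), or 1.47-fold lower with estradiol, with a 95% interval from -0.98 to -0.12.

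The distance between the groups was larger than the spread within them for Cck. The smallest of the 4 differences between an estradiol and a placebo pool was -0.46 and the greatest -0.64, while the pools of a group differed by 0.07 with estradiol and 0.11 with placebo. With 1 array left out, the log2 fold change stayed between -0.61 and -0.50. Its unadjusted p in limma, a linear model with shrunken variances fitted over all probe sets, was 0.0180. This was the rank of 56 among 5244 tested probe sets, and 181 of them, or 3.45%, had a log2 fold change as low or lower. After Benjamini-Hochberg adjustment over all of these, the limma p of Cck was 0.998, so the difference did not pass the threshold of 0.05.

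**Figure D1:**
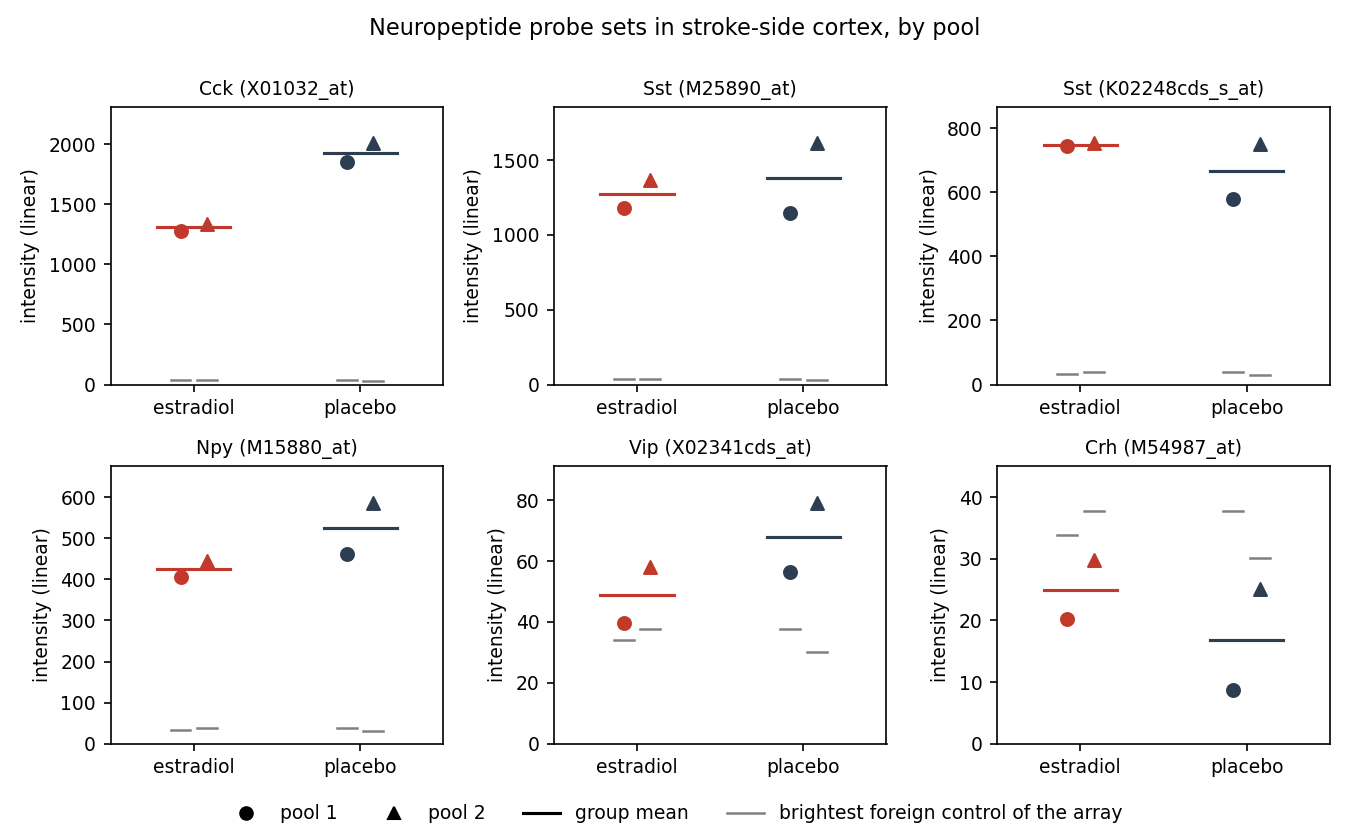
Linear intensity of each of the 6 neuropeptide probe sets in the 2 estradiol and 2 placebo pools, with the group mean as a coloured bar and the brightest foreign control of each array as a grey bar. The Cck values of the groups are well apart (1278.9 and 1339.6 against 1854.7 and 2006.7), the Npy values narrowly so, the Sst and Vip values overlap, and Crh lies under the background on all 4 arrays.

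Npy, which encodes neuropeptide Y, lay slightly lower with estradiol. Probe set M15880_at stood at 405.2 and 444.5 under estradiol against 460.9 and 587.1 under placebo. The groups did not overlap, but estradiol 2 and placebo 1 were only 0.05 apart on the log2 scale. Means were 424.9 ± 27.8 (SD, n = 2) and 524 ± 89.2 (SD, n = 2), and the log2 fold change was -0.28 ± 0.21 (SE), with a 95% interval from -0.78 to 0.21. The placebo pools differed from each other by 0.34, more than the groups did, and the value was -0.11 without placebo 2. The adjusted p in limma was 0.998 and the unadjusted p 0.223.

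Vip, which encodes vasoactive intestinal peptide, was read close to background. Probe set X02341cds_at stood at 39.8 and 58.0 under estradiol against 56.4 and 79.2 under placebo. The groups overlapped, with estradiol 2 above placebo 1, and estradiol 1 was only just above the foreign controls of its array at 33.9. The log2 fold change was -0.37 ± 0.32 (SE), with a 95% interval from -1.11 to 0.37 and an unadjusted p in limma of 0.281 (adjusted p = 0.998). Pool differences within the groups, 0.41 with estradiol and 0.40 with placebo, were as large as that value. Without estradiol 1 or without placebo 2 it was -0.17. At such a level the offset matters, and an offset of 1 gave -0.47 and an offset of 64 gave -0.22.

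Sst, the somatostatin precursor gene, had 2 probe sets whose values did not share a sign. Probe set M25890_at stood at 1182.3 and 1363.8 under estradiol against 1149.2 and 1610.9 under placebo, so that the placebo pools enclosed both estradiol pools. Its log2 fold change was -0.10 ± 0.23 (SE), with a 95% interval from -0.63 to 0.43 (limma, adjusted p = 0.998). Probe set K02248cds_s_at stood at 744.4 and 752.6 under estradiol against 579.2 and 751.4 under placebo. Here placebo 1 alone was low, and the other 3 pools were nearly equal.

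The log2 fold change of that second Sst probe set was 0.18 ± 0.21 (SE), with a 95% interval from -0.31 to 0.67 (limma, adjusted p = 0.998). Without placebo 1 it was -0.01. The first probe set had -0.34 without placebo 1 and 0.14 without placebo 2, so the sign of both turned with the placebo pools, and the first was also near 0 (0.0031) without estradiol 1. The mean of the 2 probe sets gave 0.04. The intervals leave room for a change in either direction, and a missed threshold does not show that Sst was equal in the groups.

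Crh, the gene of corticotropin-releasing hormone, was not detected above background. Probe set M54987_at stood at 20.2 and 29.8 under estradiol against 8.7 and 25.1 under placebo, below the brightest foreign control of every array. It did not pass the filter on low values, was not tested, and no fold is given. Of the 6 member probe sets, 5 passed that filter, 2 of Sst and 1 each of Cck, Npy and Vip.

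**Figure D2:**
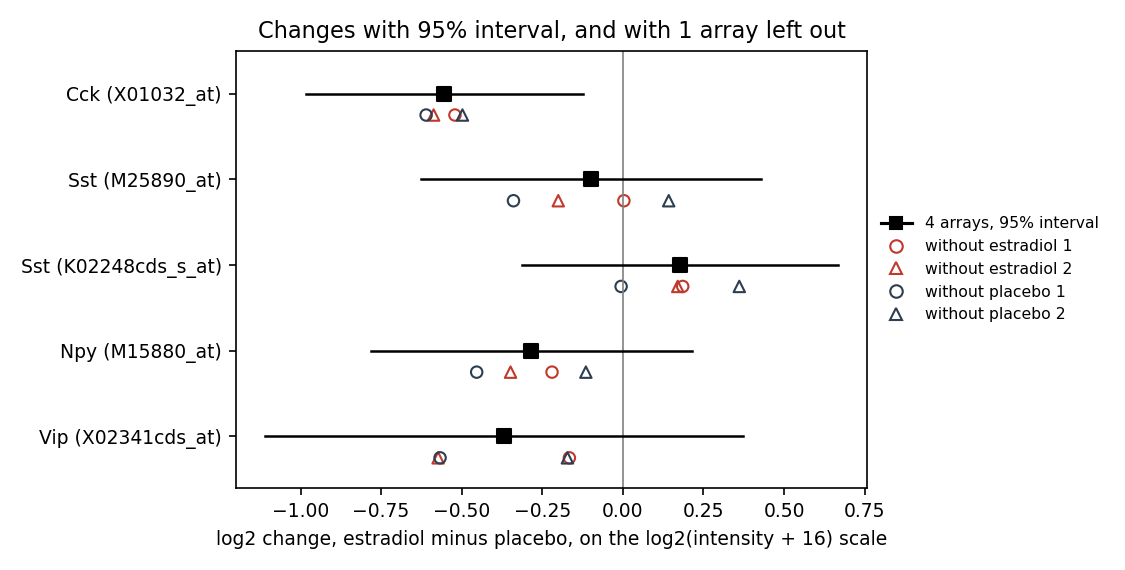
Log2 change, estradiol minus placebo, of the 5 tested neuropeptide probe sets. Squares and lines give the value and 95% interval from all 4 arrays, and open symbols the value with 1 array left out. The interval of Cck (-0.98 to -0.12) is the only 1 of the 5 that leaves out 0, and the Sst values change sign with an array left out.

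Of the 5 tested member probe sets, 4 had values below 0, with a median of -0.28. Over all 5244 tested probe sets, 48.4% were below 0 and the median was 0.01. With adjustment over all probe sets, 0 of the 5 members were called in limma, against 0% of all probe sets. At an unadjusted p below 0.05, 1 of the 5 was lower, Cck, where 1.33% of all probe sets were. In 2 of the 5, Cck and Npy, both estradiol pools lay below both placebo pools, which held for 14.3% of all probe sets. With 2 against 2 pools, the smallest two-sided exact permutation p for a single gene is 0.333. Whether the peptides differed from each other in their change was not tested.

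The tested peptides had a shared pattern between pools, apart from treatment, that was noticed after the values were seen. In all 5 tested member probe sets pool 2 was brighter than pool 1 in both groups, which held for 30.3% of all tested probe sets. The difference on the log2 scale ranged from 0.02 for Sst K02248cds_s_at to 0.41 for Vip with estradiol, and from 0.11 for Cck to 0.48 for Sst M25890_at with placebo. The 5 probe sets share arrays, and 2 of them share a gene, so they are not independent. The pool numbers are labels only, and the differences between pools did not run together over all probe sets (correlation of 0.036 across probe sets, which are not independent replicates).

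Neuron markers and activity-related transcripts were also unequal between the pools. Of 14 tested general neuron markers, 10 were brighter in pool 2 of both groups, with median log2 differences of 0.16 with estradiol and 0.36 with placebo. Their summed intensity was 16694 and 17940 under estradiol against 15832 and 20267 under placebo. Genes of neuronal activity and CREB signalling, such as Egr1 and Nr4a1, ran the other way. Only 2 of 23 were brighter in pool 2 of both groups, with median differences of -0.58 and -0.78, and their summed intensity was 16744 and 7411 under estradiol against 17010.5 and 6972 under placebo. The part of neuron content in the peptide values was not tested.

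**Figure D3:**
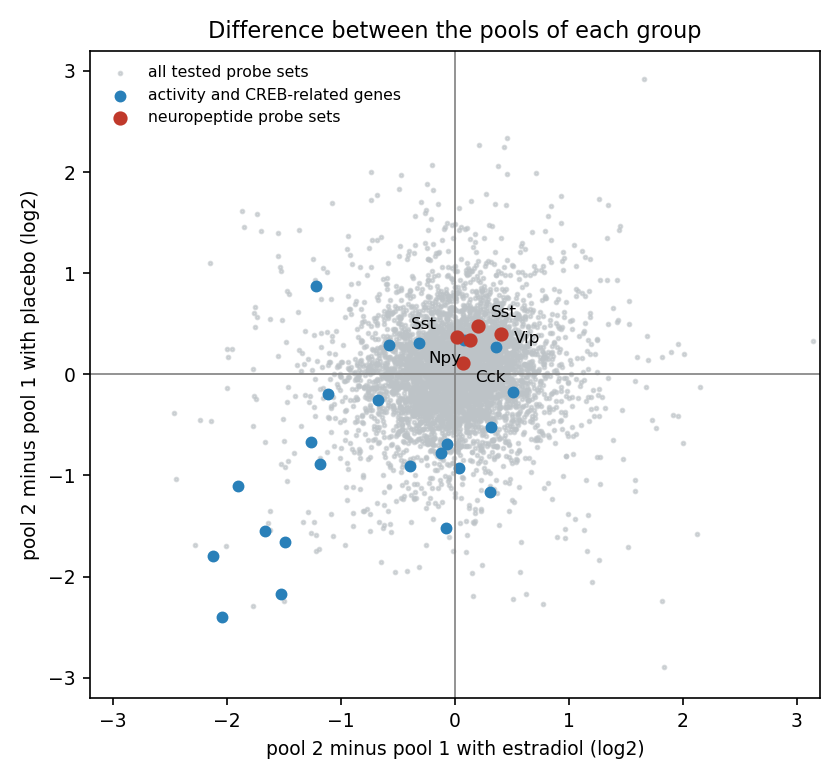
Pool 2 minus pool 1 with estradiol (x axis) and with placebo (y axis), on the log2(intensity + 16) scale, for all tested probe sets (grey, 3 of them outside the axes), the tested genes of neuronal activity and CREB signalling (blue) and the 5 tested neuropeptide probe sets (red). All 5 neuropeptide points are in the upper right quadrant, near the origin, whereas most blue points are at the lower left.

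Receptors of these peptides were read near background in many cases. The list held 17 genes, among them the binding protein gene Crhbp, of which 13 had a probe set of their own and 7 were tested. Of the 7, 3 had values above 0 and 4 below, the median was -0.0024, and 0 passed in limma after adjustment, with 0 also at an unadjusted p below 0.05. Sstr3, Npy5r, Vipr2 and Adcyap1r1 were at background on every array by their brightest probe set. Sstr1 and Npy4r, a further receptor of the neuropeptide Y family, were also under the filter. Npy4r stood at 13.8 and 16.6 under estradiol against 39.4 and 18.9 under placebo.

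Cckbr encodes the main cholecystokinin receptor of the brain. Its brighter probe set X79208_s_at stood at 180 and 120.5 under estradiol against 180.9 and 205.3 under placebo, with a log2 fold change of -0.35 ± 0.25 (SE). Estradiol 1 and placebo 1 were almost equal, and the value was -0.09 without estradiol 2. The other Cckbr probe set, M99418_at, stood at 83.1 and 78.0 against 60.9 and 78.1 and gave 0.18, of the opposite sign.

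Among the somatostatin receptors, Sstr2 stood at 106.3 and 129.4 under estradiol against 94.8 and 81.0 under placebo, which gave a log2 fold change of 0.36 ± 0.24 (SE) and no call (limma, adjusted p = 0.998). Sstr4 had -0.12, with 135.5 and 83.4 against 156.2 and 87.7, so that pool 1 was brighter in both groups. Sstr5 had -0.16, with 45.2 and 42.4 against 61.5 and 41.8, and only placebo 1 stood apart.

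Npy1r, a receptor of neuropeptide Y, stood at 78.0 and 78.1 under estradiol against 77.6 and 64.5 under placebo, with a log2 fold change of 0.12. Vipr1, a receptor of vasoactive intestinal peptide, had 0.30 from values of 56.4 and 44.9 against 19.0 and 67.1, and the placebo pools enclosed the estradiol pools. Crhbp, which binds corticotropin-releasing hormone, had -0.0024, with 32.4 and 45.0 against 53.7 and 26.5.

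Enzymes and granule proteins that process and store peptides had values on both sides of 0. Of 8 tested genes, 5 were above 0 and 3 below, with a median of 0.17, and 0 passed in limma after adjustment. The highest were Scg5 with 0.40, whose groups overlapped, and Scg2 with 0.40, followed by Cpe with 0.38. In Scg2 and Cpe both estradiol pools lay above both placebo pools, as in 512 of all 3181 tested genes. The lowest was Furin, which encodes a convertase, with -0.12 by its brighter probe set. Its dimmer probe set X55660_at stood at 51.0 and 35.4 under estradiol against 107 and 145.7 under placebo, with both estradiol pools lower. This gave a log2 fold change of -1.26 and an unadjusted p in limma of 0.00265 (adjusted p = 0.998). The estradiol 2 value was under the brightest foreign control of its array, 37.8. Other neuropeptide precursors had 16 tested genes, 6 above 0 and 10 below, with a median of -0.03. The extremes ran from Nppc, the precursor of C-type natriuretic peptide, with -0.36 and Trh, the precursor of thyrotropin-releasing hormone, with -0.33, to Tac1 with 1.68 and Oxt with 1.67. Oxt rested on estradiol 2, at 493.5 against 32.1 to 44.3 in the other pools. The list was drawn up with these results in view. At an unadjusted p below 0.05, 3 of the 16 were higher and 0 lower by their brightest probe set, and 0 passed after adjustment in limma. Over all 3181 tested genes, 1.70% were higher and 0.880% lower at that level. Nppa, the precursor gene of atrial natriuretic peptide, had -0.20 by the probe set used for it, E00903cds_s_at. The almost equally bright E00775cds_s_at gave -0.99, with an unadjusted p in limma of 0.0226 (adjusted p = 0.998). Its estradiol values, 21.0 and 26.2, were under the foreign controls of their arrays. Avp, the vasopressin precursor gene, had -0.12 by its brightest probe set. Its probe set M64785_g_at went the other way, with 55.1 and 106.9 under estradiol against 18.8 and 43.4 under placebo. This gave 1.04, with an unadjusted p in limma of 0.0379 (adjusted p = 0.998).

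**Figure D4:**
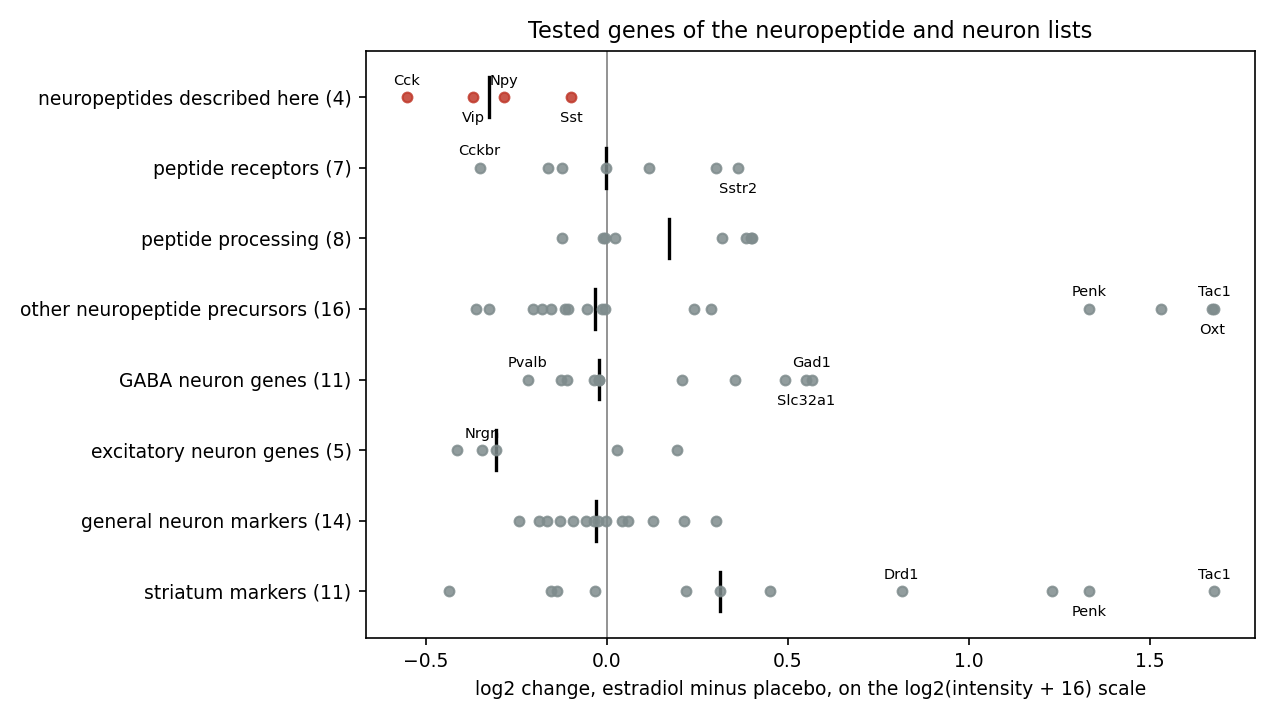
Log2 change, estradiol minus placebo, of each tested gene in 8 lists (number of tested genes in brackets), each gene by its brightest tested probe set. Black bars are list medians, such as -0.33 for the 4 tested neuropeptide genes, -0.02 for GABA neuron genes, -0.31 for excitatory neuron genes and 0.31 for striatum markers.

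Other genes of GABA neurons had values on both sides of 0. Of 11 tested GABA neuron genes, 5 were above 0 and 6 below, with a median of -0.02, and 0 passed in limma after adjustment or at an unadjusted p below 0.05. Pvalb, the parvalbumin gene of a further interneuron class, had -0.22 (-0.03 without placebo 2), and Calb2, the calretinin gene found in many Vip interneurons, had -0.13. Both of their groups overlapped. Gad1, a GABA-synthesising enzyme gene, had 0.57 and the vesicular GABA transporter gene Slc32a1 had 0.55, though a dimmer probe set of Slc32a1 gave -0.61.

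The Gad1 value depended strongly on which array was left out. Gad1 stood at 544.9 and 778.7 under estradiol against 294.5 and 638.6 under placebo. With 1 array left out its log2 fold change lay between 0.03, without placebo 1, and 1.10. In placebo 1 both Sst probe sets were also at their lowest. Slc32a1 stood at 638 and 1006.2 against 409.4 and 716.3, with placebo 1 again the lowest of the 4, and its log2 fold change was 0.16 without placebo 1.

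Excitatory neuron genes also had values on both sides of 0. Of 5 tested genes, 2 were above 0 and 3 below, with a median of -0.31, which is the value of Neurod2, and 0 passed after adjustment or at an unadjusted p below 0.05 in limma. Neurod2, a neuronal transcription factor gene, stood at 78.3 and 46.9 under estradiol against 123.6 and 49.0 under placebo, and its groups overlapped. Nrgn encodes neurogranin, a calmodulin-binding protein of forebrain excitatory neurons. It stood at 4210 and 3854.5 under estradiol against 4720.8 and 5560.7 under placebo, with a log2 fold change of -0.35 ± 0.19 (SE), and its other probe set gave -0.37. Both Nrgn probe sets had both estradiol pools below both placebo pools, as Cck did and as 14.3% of all tested probe sets did. Nptx1, a neuronal pentraxin gene, had -0.42 (-0.08 without placebo 2), also with both estradiol pools lower. Of its dimmer tested probe sets, rc_AI044716_at gave -0.12 with groups that overlapped, and rc_AI072098_at gave -0.68 with both estradiol pools lower. Hpca, the hippocalcin gene, had 0.03 and Camk2a, a calmodulin-dependent kinase gene, 0.19. The defining marker Slc17a7, a vesicular glutamate transporter gene, was at background on every array by its only probe set, so the list rests on the other genes. The list median was -0.01 without estradiol 2.

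Striatum markers were measured although the arrays are labelled as cortex. Of 11 tested markers, 7 were above 0 and 4 below, with a median of 0.31. At an unadjusted p below 0.05 in limma, 3 were higher, Tac1, Penk and Drd1, and 0 lower. Over all tested genes, 1.70% were higher and 0.880% lower at that level. After adjustment 0 markers passed. Tac1 and Penk, the highest of these markers, are also counted among the other peptide precursors above, so the counts of the lists are not independent. The summed intensity of the 12 measured markers was 3423 and 3395 under estradiol against 2468 and 2712 under placebo, and Drd2 was at background on every array. Tac1 stood at 380.6 and 408.4 under estradiol against 108.3 and 116 under placebo, and Penk, the enkephalin precursor gene, at 640.9 and 526 against 174.3 and 279. The other 10 markers summed to 2401.8 and 2460.8 against 2185.7 and 2317.2. Among them Drd1, a dopamine receptor gene, stood at 74.1 and 134 against 48.8 and 51.4, a log2 fold change of 0.81. Rgs9 had 1.23, but was above background in estradiol 2 alone, with 24.3 and 146.4 against 16.2 and 21.0. The lowest values were those of Chat, an acetylcholine-synthesising enzyme gene, with -0.44 and Pdyn, the dynorphin precursor gene, with -0.16, and both had groups that overlapped. The brighter Pdyn probe set made up the largest part of the sum of the 10 markers. It stood at 1149.6 and 686.9 under estradiol against 1065.6 and 923.4 under placebo. The dimmer Pdyn probe set M10088cds_s_at gave 0.17. The part of a different share of striatal tissue in the Cck value was not tested.

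Markers of other cell types gave 0 calls after adjustment in limma. The median was -0.03 for 11 tested astrocyte genes, 0.14 for 9 microglia and macrophage genes, -0.08 for 2 neutrophil genes, -0.07 for 10 oligodendrocyte genes and 0.03 for 9 genes of choroid plexus and meninges. All 9 vascular genes were below 0, with a median of -0.19, but 5 of the 9 were below 0 without placebo 1, with a median of -0.04. Of the 7 blood cell genes, 5 were below 0, with a median of -0.55. At an unadjusted p below 0.05 in limma, 2 of the 9 vascular and 3 of the 7 blood cell genes were lower, against the share of 0.880% over all genes. The 3 blood cell genes were the globin genes Hbb, Hbb-b1 and Hba-a3, so they are not independent of each other. The summed intensity of the blood genes was 1990 and 4356 under estradiol against 6224 and 5417.5 under placebo, lower in both estradiol pools, as Cck was. The choroid plexus and meninges genes summed to 2339 and 6862 under estradiol against 12093 and 1330 under placebo. Ttr, the transthyretin gene of choroid plexus, stood at 165.3 and 4311.9 against 8034.3 and 74.3. It was highest in placebo 1, the pool that was lowest for Gad1 and for both Sst probe sets. Their part in the peptide values was not tested.

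The genes nearest to each peptide were found by the root mean square difference between log2 values over the 4 arrays, after each gene's mean was taken off. For Cck they were Casq2 at a distance of 0.024, Rhoa at 0.046 and Fntb at 0.067, where the Cck values themselves spread by 0.28. Casq2 stood at 48.6 and 53.4 under estradiol against 78.6 and 89.5 under placebo. For Sst, by M25890_at, they were Eif4a2 at 0.018, Chrna1 at 0.022 and Afdn at 0.025. For Npy they were Bdh1 at 0.011, Nefl, a neurofilament gene, at 0.023 and Psmb5 at 0.029, and for Vip they were Cfp at 0.017, Alas2 at 0.033 and Speg at 0.037. Nefl stood at 1172.2 and 1309.4 under estradiol against 1298.8 and 1663.2 under placebo. With 4 arrays and 5244 probe sets close matches are common, and the neighbours are given as a description.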

How the data were processed

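The authors' deposited values are linear intensities, 1 per probe set and array, already scaled, since the means after trimming 2% at each end lay between 150.18 and 150.20. The sources used here do not name the program that made them. Of 8799 rows, 59 controls were left out. Genes were named from the platform annotation where a probe set had 1 symbol. Array medians lay within 0.056 on the log2 scale, so values were used as deposited, as log2(intensity + 16). Probe sets with a mean below the 40th percentile, 37.5, were left out, which left 5244. Groups were compared with limma 3.58.1 in R 4.3.3 (lmFit, eBayes with an intensity trend, two-sided, Benjamini-Hochberg over all probe sets, threshold 0.05). Standard errors, intervals and p-values come from that fit, which had 2 residual and 5.63 prior degrees of freedom. It was tested on simulated data. Tables and plots used Python 3.11.15, pandas 2.3.3 and matplotlib 3.10.9.

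The members, gene lists and rules were chosen with earlier results of these data known. Named genes were the members, the receptor list, the 2 highest and 2 lowest values of a list where they bear on a comparison, and the 3 nearest genes of each tested member. Any other gene named was chosen after its values were seen. A list gene was represented by its brightest tested probe set. Alternatives were offsets of 1 and 64, no filter, a filter at the 60th percentile, quantile normalization, median centring, no intensity trend, the pool number as a block, the mean of a gene's probe sets, and leaving out each array. The labels do not say that a pool number is shared between groups, so pools were not paired.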

Additional observations from a re-analysis of the deposited data

Results flagged for a closer look

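A probe set outside the comparison, U51919_at, carries the symbols Cenps, Pgd, Kif1b and Cort. It stood at 38.7 and 21.9 under estradiol against 34.9 and 39.8 under placebo, above every foreign control on 2 of the 4 arrays, estradiol 1 and placebo 2. The other probe set with these symbols, AF083331_at, stood at 5.1 and 1.6 under estradiol against 8.3 and 4.7 under placebo. Neither value can be assigned to Cort.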

How the results depend on the processing

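In limma, 0 probe sets passed the adjusted threshold under each of the alternatives run for this count, which leave out the mean of a gene's probe sets, against 161 at an unadjusted p below 0.05 with the reported setting. Of 64 member values under the alternatives, 60 kept their sign and 4 did not, all of them of Sst. Many of the 64 could not change, so the count overstates stability. The filters, the intensity trend and the pool block leave a fold change as it is. So does the mean of probe sets for Cck, Npy and Vip, each with a single tested probe set. The Sst probe set M25890_at had 0.0396 as the mean of both probe sets. With 1 array left out, the log2 fold change lay between -0.61 and -0.50 for Cck, -0.45 and -0.11 for Npy, -0.57 and -0.17 for Vip, -0.34 and 0.14 for Sst by M25890_at, and -0.0055 and 0.36 for Sst by K02248cds_s_at. Of the receptors, Sstr4 lay between -0.49 and 0.24, Sstr5 between -0.37 and 0.049, Vipr1 between -0.32 and 0.92 and Crhbp between -0.36 and 0.35, and Crhbp had 0.015 with an offset of 1. Of the other named genes, Hpca lay between -0.22 and 0.27, Camk2a between -0.37 and 0.76 and Eif4a2 between -0.36 and 0.10, and Hpca had -0.0048 with median centring. The cause of these sign changes was not tested. List medians turned in sign without 1 array for receptors (-0.27 to 0.22), GABA neuron genes (-0.13 to 0.37, 0.02 with no filter and 0.21 with the 60th percentile filter), other peptide precursors (-0.06 to 0.09), general neuron markers (-0.17 to 0.18) and activity genes (-0.34 to 0.44), and for astrocyte (-0.07 to 0.05), neutrophil (-0.60 to 0.43), oligodendrocyte (-0.27 to 0.19) and choroid plexus and meninges genes (-0.66 to 0.29). They stayed below 0 for the 4 tested peptides (-0.51 to -0.14), excitatory neuron genes (-0.37 to -0.01), vascular genes (-0.46 to -0.04) and blood cell genes (-0.61 to -0.30), and above 0 for striatum markers (0.13 to 0.54). The 60th percentile filter removed Vip.

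With the replicate block, the pool number of the labels, 0 probe sets passed and 210 had an unadjusted p below 0.05. The block is balanced over the groups, so it cannot change a log2 fold change, and only the error and p differ. Cck, at -0.55, had an unadjusted p in limma of 0.014 (adjusted p = 0.989). Gad1 and Slc32a1 then had unadjusted p of 0.0386 and 0.0212 in limma (adjusted p = 0.989), against 0.155 and 0.127 without the block. The pool differences had a correlation of 0.036 across probe sets, although those of neuron and activity genes ran the same way in both groups. The labels name no shared source for a pool number, and whether the numbers mark one was not settled.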
